A study of Mus musculus with 2 samples.

Results

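The 42 genes described here encode the machinery of regulated exocytosis: SNARE proteins of the target membrane and of the vesicle, their SM protein partners, complexins, priming factors, synaptotagmins, the small GTPases Rab3 and Rab27 with their effectors, the proteins that take SNARE complexes apart, and proteins of the vesicle membrane. They were taken from a list of symbols, matched to Ensembl mouse gene names on GRCm38, and 42 of 42 were found among the 43346 Ensembl genes of the deposited tables. The rule uses no measured value. They fall into 14 families by role. The tissue was adrenal gland of a C57BL/6J mouse, female, adult and 10 weeks old, with no treatment or genetic change named. By the labels, polyadenylated RNA of 1 biological sample was sequenced as 2 libraries, called replicate 1 and replicate 2, the second of which was made in 2015, after the first. The labels call them technical replicates. Whether they came from 1 RNA preparation or 1 piece of tissue is not given in the sources used here. On these labels there is 1 group, no comparison between conditions, and no measure of the spread between animals. Every test below compares these libraries only, and the year and the library cannot be told apart.

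In regulated exocytosis a loaded vesicle waits at the plasma membrane until calcium rises. A SNARE of the vesicle then zips together with SNAREs of the plasma membrane and pulls the membranes into contact, while SM proteins and priming factors guide the assembly, complexins clamp it and synaptotagmins read the calcium signal. In the adrenal gland this machinery is best known from the chromaffin cells of the medulla, which release catecholamines and granins from large dense-core vesicles, whereas the steroids of the cortex leave their cells without such vesicles.

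The libraries held 28267651 and 17376660 rounded expected counts, the estimated numbers of fragments per gene. Genes of the mitochondrial genome took 40.1% of them in replicate 1 and 10.6% in replicate 2, which lowers the deposited TPM (transcript abundance corrected for length, with the same total in every library) of every nuclear gene in replicate 1. TPM was therefore also rescaled so that nuclear genes alone make up the whole total, leaving out the mitochondrial genes and their 15 nuclear copies, and is called nuclear TPM below. On that scale the 42 genes together were nearly level, at 1360 in replicate 1 and 1408 in replicate 2, and they took 0.176% and 0.175% of the counts of nuclear genes. Single members moved in both directions within that sum. In a bulk sample fewer cells of a type and less RNA per cell cannot be told apart. Of the tissue's defining markers, the 9 cortex genes summed to 41959 and 60310 nuclear TPM and the 12 chromaffin genes to 4431 and 9088. All of these were listed above 0 in both libraries except Pnmt, the enzyme that makes adrenaline, which was listed at 0 in replicate 1 and at 357 TPM in replicate 2 (0 and 4291 counts). Markers of tissue outside the gland differed as well: the 5 skeletal muscle genes summed to 63.3 and 523 nuclear TPM, and Ckm, the creatine kinase of muscle, had 3 and 1196 counts. Pnmt, Ckm and 2 other muscle genes were also called higher once the trend with GC content described below was removed, Ckm at a log2 ratio of 5.22. The libraries thus differed in the tissue markers they held, and the part of this in the values below was not tested.

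A deposited TPM of at least 1 was reached by 31 of the 42 genes in both libraries. Another 8 reached it in replicate 2 alone, namely Stx1a, Syt5, Syt9, Cplx1, Unc13a, Rph3a, Sv2a and Dnm1. Rab27b, Rims1 and Sv2c reached it in neither library, although Rab27b came close at 0.93 and 0.94 TPM. Among all Ensembl genes, 9202 reached a deposited TPM of 1 in replicate 1 and 13486 in replicate 2. The genes kept for nuclear TPM summed to 174936 and 616382 deposited TPM, so for them this minimum was stricter in replicate 1. On the nuclear scale 37 of the 42 genes reached 1 in both libraries. Of all genes 12879 reached it in replicate 1 and 14328 in replicate 2. Across the 42 genes the nuclear TPM of the libraries correlated with a Spearman rho of 0.73, a description over genes that share both libraries. The order at the top differed. Stxbp3, Snap23, Vamp3 and Vamp2 led replicate 1 at 174, 160, 132 and 119 nuclear TPM, and Vamp8, Napa, Vamp2 and Stx4a led replicate 2 at 182, 121, 114 and 83.8. Vamp2, the main vesicle SNARE of chromaffin granules and synapses, was the one gene among the first 4 of both.

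**Figure D1:**
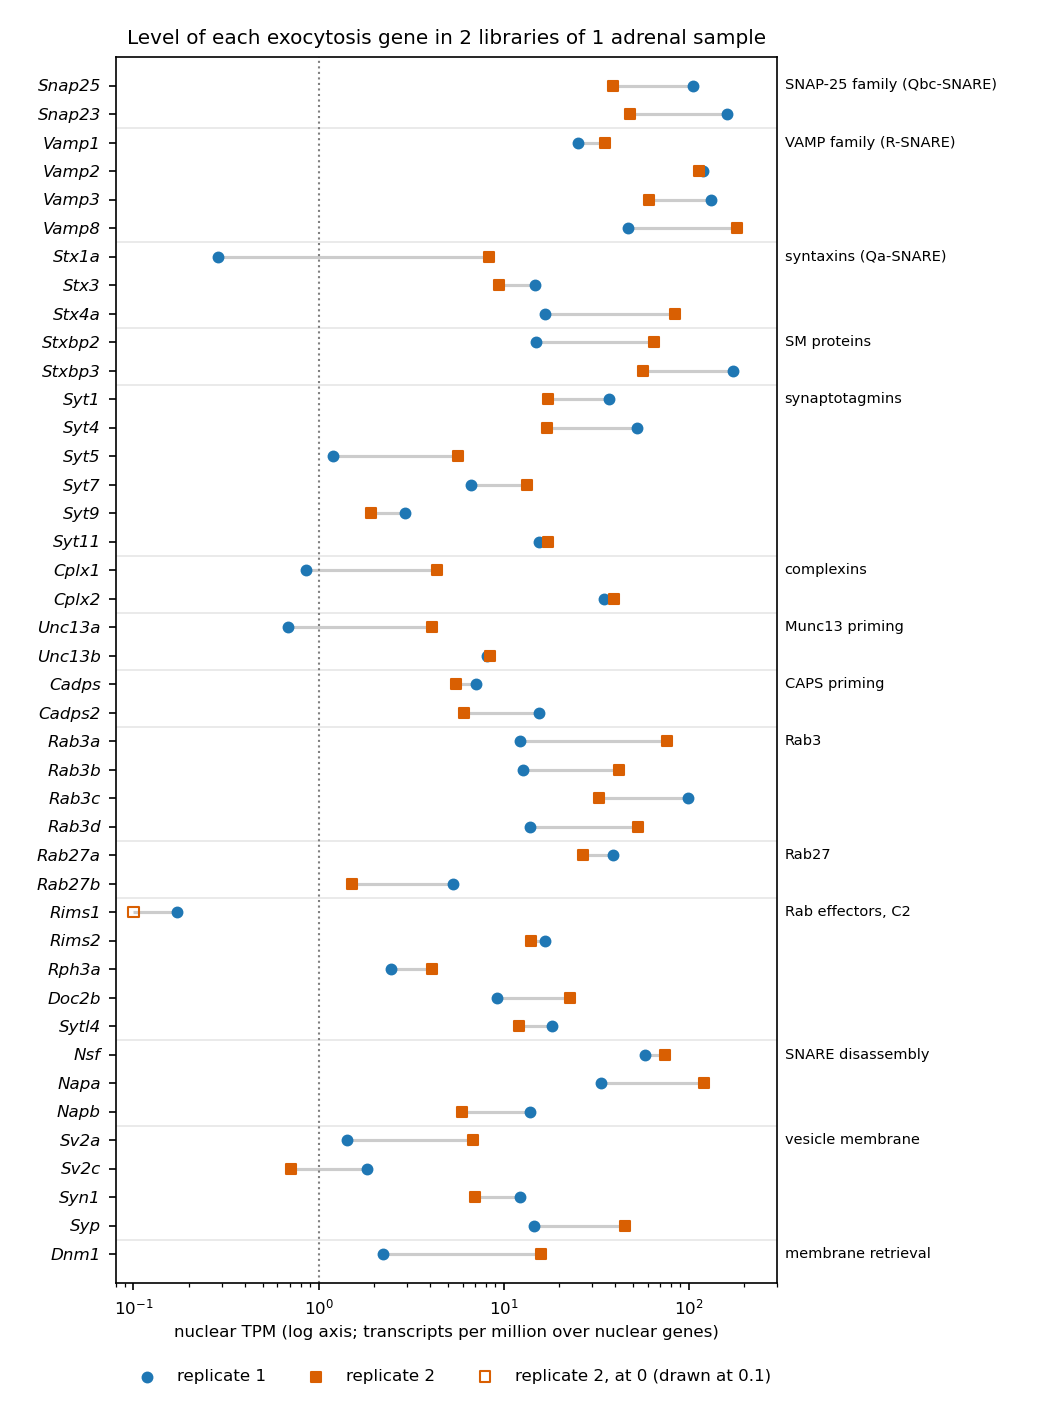
Nuclear TPM of the 42 exocytosis genes on a log axis, grouped by family, with replicate 1 as circles, replicate 2 as squares and a grey line joining them; the dotted line marks 1 nuclear TPM. Vamp2, Unc13b and Syt11 have nearly the same level in both libraries, Stx1a spans 0.286 to 8.31, and Rims1 is listed at 0 in replicate 2.

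For the comparison of the libraries rounded counts were scaled with TMM (edgeR), and an exact binomial test, two-sided, was run on every gene whose counts summed to 20 or more. A gene was called higher or lower in replicate 2 at a Benjamini-Hochberg adjusted p under 0.05 over all 14358 tested genes and a fold of at least 2. Of the 42 exocytosis genes 41 had enough counts, and Rims1, with 5 and 0 counts, did not. Of these 41, 16 (39.0%) were higher in replicate 2, beside 36.5% of all tested genes, and 9 (21.95%) were lower, beside 27.7% of all tested genes. The members' median log2 ratio was 0.21 and that of all tested genes 0.10. The counts for the exocytosis genes are thus near those for genes at large. Scaling by total count in place of TMM gave 22 higher and 0 lower, beside 54.1% and 3.98% of all tested genes. It moved the median of all tested genes from 0.10 to 1.24, so each direction below is relative to TMM scaling. That median was 0.39 under total-count scaling over nuclear genes, which gave 17 higher and 6 lower, beside 40.4% and 20.7% of all tested genes.

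The ratios followed the GC content of the genes. The 9 genes that were lower had a GC content of 40.1% to 46.2%, and the 16 that were higher had 50.4% to 58.7%, so the ranges did not overlap. Over all tested genes with a GC value they did overlap, at 30.8% to 62.7% for lower and 40.2% to 71.3% for higher genes. The medians there were 43.4% and 55.5%, near the 42.2% and 55.4% of the exocytosis genes. The 16 genes not called lay at 46.6% to 57.7%. Over the 41 genes the log2 ratio and GC content had a Spearman rho of 0.81, and over the 14274 tested genes with a GC value it was 0.88. After the trend with GC over all tested genes was removed, 1 exocytosis gene was higher (background 17.1%) and 7 were lower (background 9.9%). Stx4a was the only gene of the 16 to keep its call. None of the 9 lower genes kept theirs. With the trends of GC and transcript length both removed, 3 were higher (background 15.1%) and 7 lower (background 10.4%). Syt5, Syt7 and Unc13a turned from higher to lower, and Vamp2, Cplx2, Rph3a and Syn1 were newly called lower. A second version of the correction, chosen after seeing the data, took the GC content of each gene's leading transcript in place of the mean over its transcripts. It called Stx4a higher again and Vamp2, Syt7, Cplx2, Rph3a and Syn1 lower again, while Syt5 and Unc13a were not called, Vamp1 was called higher at 1.03 and Syp lower at -1.26.

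**Figure D2:**
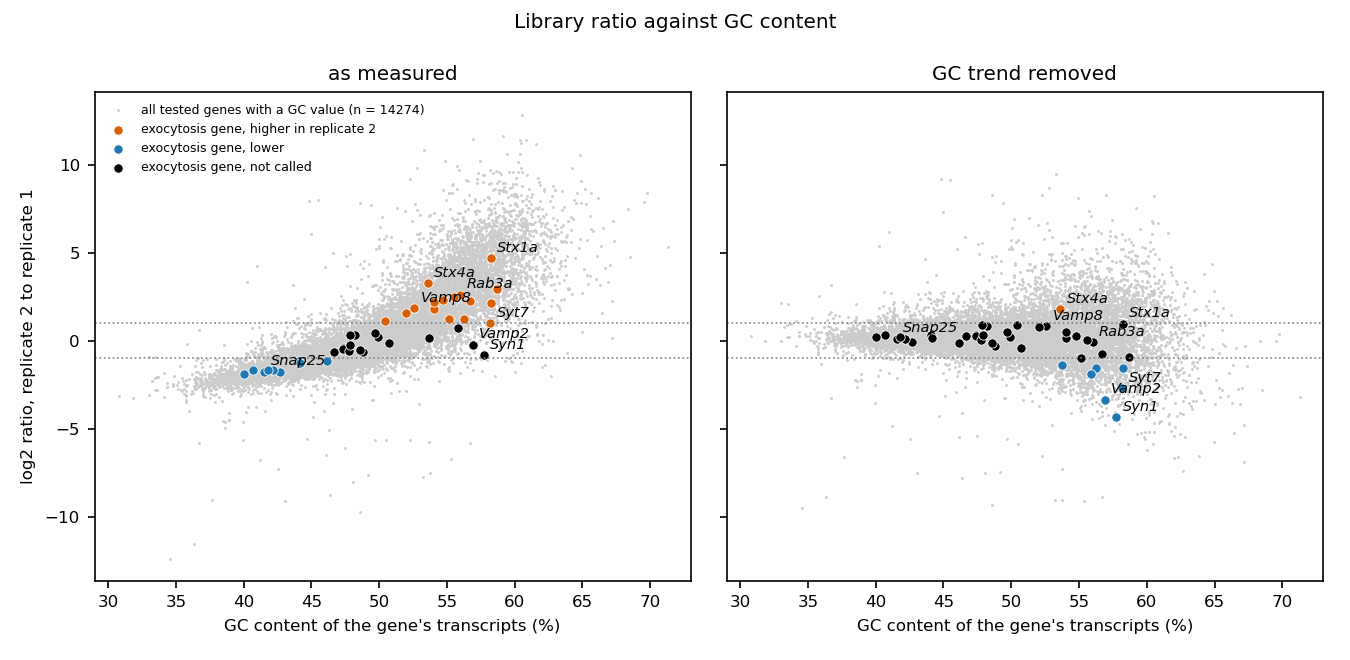
Log2 ratio of replicate 2 to replicate 1 against the GC content of each gene's transcripts, as measured on the left and after removal of the GC trend on the right; grey dots are all tested genes with a GC value, coloured dots the exocytosis genes by their call, and dotted lines mark a 2-fold difference. As measured, the genes called lower lie at 40.1% to 46.2% GC and those called higher at 50.4% to 58.7%, and after removal Stx4a stays above the upper line while Vamp2, Syt7 and Syn1 lie far below the lower one.

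SNAP-25 proteins give 2 of the 4 helices of a SNARE complex. Snap25 (ENSMUSG00000027273.9, chr2:136713453-136782428, plus strand of GRCm38), the form of neurons and endocrine cells that botulinum toxin A cleaves, had 1169 counts in replicate 1 and 470 in replicate 2. Its level was 106 and 39.1 nuclear TPM. It was lower in replicate 2 by a log2 ratio of -1.75 (adjusted p = 1.12e-121, exact binomial test), and stood at 0.12 with the GC trend removed, where it was not called. Its broadly expressed paralog Snap23 (chr2:120567671-120601255) had 2286 and 909 counts, 160 and 48.1 nuclear TPM, and a log2 ratio of -1.76 that became -0.08. Both genes moved alike, so the split within the family stayed close: Snap23 took 60.3% of the summed TPM in replicate 1 and 55.2% in replicate 2, and Snap25 took 39.7% and 44.8%.

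Snap25 has a pair of mutually exclusive exons of 118 bases each, which encode the membrane-anchoring cysteine region and set apart the SNAP-25a and SNAP-25b proteins. They are shown because the libraries differed in the shares assigned to the transcripts that hold them. The upstream exon (chr2:136769743-136769860) belongs to transcript Snap25-202 and the downstream exon (chr2:136770057-136770174) to Snap25-201, in GENCODE M21 on GRCm38, plus strand, 5′ to 3′. Capitals mark the 31 of 118 positions where the exons differ, which leaves them 73.7% identical.
Snap25-202, upstream exon: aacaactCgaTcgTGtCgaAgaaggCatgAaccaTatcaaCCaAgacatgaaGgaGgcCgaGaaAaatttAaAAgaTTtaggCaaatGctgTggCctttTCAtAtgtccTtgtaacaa
Snap25-201, downstream exon: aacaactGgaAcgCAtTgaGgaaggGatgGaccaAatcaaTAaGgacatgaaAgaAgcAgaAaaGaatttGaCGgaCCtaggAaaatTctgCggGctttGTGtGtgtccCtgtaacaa
The transcript with the downstream exon, Snap25-201, took 91.9% of the gene's TPM in replicate 1 and 64.5% in replicate 2, and Snap25-202 took 6.34% and 34.8%. Behind these shares stood 1087 and 373 estimated counts for Snap25-201 and 32.1 and 86.2 for Snap25-202. Snap25-201 led in both libraries. The transcripts differ in more than the exon: Snap25-201 alone holds 1077 bases of 3′ untranslated sequence, and Snap25-202 has no stretch of its own beyond its 118-base exon. How far reads over the exons themselves set the shares was not tested.

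Syntaxins give the target membrane's other helix. Stx1a, the neuronal syntaxin that pairs with Snap25, had 3 and 119 counts, or 0.286 and 8.31 nuclear TPM. The 3 counts were all assigned to a retained-intron model, Stx1a-205. The ratio was 25.8-fold with an exact 95% interval of 9.81 to 144, which covers counting error only. Stx3, the syntaxin of apical membranes, stood at 14.9 and 9.39 nuclear TPM and was not called (log2 ratio -0.62). Stx4a, the syntaxin of the basolateral and general plasma membrane, had 56 and 744 counts and rose from 16.8 to 83.8 nuclear TPM (9.77-fold on counts, interval 7.49 to 13.2). It remained higher with the GC trend removed, at a log2 ratio of 1.80. Stx4a led the family in both libraries, with 52.6% and 82.6% of the summed TPM. Its assigned length was 762 bases in replicate 1, where a short retained-intron model, Stx4a-205, led with 58.7% of its TPM from 18.0 estimated counts, and 1344 in replicate 2. Without division by length Stx3 led replicate 1, with 80.2% of the family's counts.

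The vesicle SNAREs of the VAMP family kept their summed level, at 323 and 393 nuclear TPM, while their order changed. Vamp2 (chr11:69088490-69092384) stood at 119 and 114 nuclear TPM, a mean of 116 ± 3.53 (SD, n = 2 libraries labelled technical replicates). Its counts were 1345 and 1567, a log2 ratio of -0.21 that was not called. At a GC content of 56.9% it lay below the trend, and was called lower at -3.34 with the GC trend removed and at -1.41 with the GC content of its leading transcript. Vamp3, or cellubrevin, the ubiquitous form of recycling endosomes, stood at 132 and 61.2 nuclear TPM and was lower (log2 ratio -1.15). Vamp8, the SNARE of exocrine, platelet and mast cell granules and of late endosomes, stood at 47.0 and 182 and was higher (log2 ratio 1.87, and 0.84 without the GC trend, not called). Vamp1, the form of spinal and motor neurons, stood at 25.2 and 35.5 and was not called. Vamp3 thus led replicate 1 with 40.8% of the summed TPM and Vamp8 led replicate 2 with 46.4%, whereas Vamp2 came second in both with 36.8% and 29.0%. Mast cell markers summed to 23.7 and 20.5 nuclear TPM and platelet markers to 4.34 and 12.6, with 3 of 6 platelet markers listed at 0 in both libraries. Macrophage markers, from cells that also hold late endosomes, summed to 185 and 618. Their part in the level of Vamp8 was not tested.

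SM proteins bind syntaxins and are needed for fusion. The 2 listed here went in opposite directions. Stxbp3, or Munc18c, a partner of syntaxin 4, had the highest nuclear TPM of the 42 genes in replicate 1, at 174, and stood at 56.8 in replicate 2 (2211 and 934 counts, log2 ratio -1.68). Stxbp2, or Munc18b, a partner of syntaxins 3 and 11 in granule-releasing blood cells and epithelia, stood at 15.0 and 65.0 (120 and 822 counts, log2 ratio 2.34). Stxbp3 took 92.1% of their summed TPM in replicate 1 and Stxbp2 took 53.4% in replicate 2. By counts, without division by length, Stxbp3 led both libraries with 94.9% and 53.2%. Their GC contents were 42.2% and 54.7%, and neither was called once the GC trend was removed, at 0.09 and 0.30.

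Complexins bind the half-zipped SNARE complex. Cplx2, the complexin of chromaffin cells, was level at 34.8 and 39.5 nuclear TPM (959 and 1438 counts, log2 ratio 0.15), and was called lower at -1.39 with the GC trend removed. Cplx1, the form of fast synapses, had 10 and 67 counts and 0.857 and 4.36 nuclear TPM. Cplx2 took 97.6% and 90.04% of the family's TPM.

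Priming factors open syntaxin and make a docked vesicle ready to fuse. Unc13b, or Munc13-2, stood at 8.17 and 8.47 nuclear TPM and was not called (219 and 375 counts). Unc13a, or Munc13-1, the main priming factor of excitatory synapses, stood at 0.686 and 4.10 nuclear TPM. On counts, 39 and 125, it was 2.36-fold higher, less than its ratio of nuclear TPM of 5.98, because its assigned length was 10255 bases in replicate 1 and 4144 in replicate 2. The CAPS proteins act on dense-core vesicles. Cadps stood at 7.09 and 5.53 nuclear TPM and Cadps2 at 15.5 and 6.12, with counts of 218 and 225 for Cadps and 204 and 199 for Cadps2, and neither was called. Cadps2 led by TPM, at 68.6% and 52.5%, but not by counts, where it took 48.3% and 46.9%.

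Synaptotagmins are the calcium sensors of the vesicle, and 6 were listed. Syt4, which does not bind calcium in the usual way and sits on dense-core vesicles, led replicate 1 at 52.8 nuclear TPM and fell to 17.2 (1139 and 492 counts, log2 ratio -1.64). Syt1, the fast sensor of synapses and chromaffin granules, stood at 37.2 and 17.4 (985 and 611 counts, log2 ratio -1.12). Syt7, the slow high-affinity sensor of chromaffin granules, stood at 6.63 and 13.3 (238 and 644 counts) and passed the fold minimum narrowly at 2.00-fold. Relative to genes of its GC content, 58.2%, Syt7 was lower, at -2.69. Syt11, which also lacks calcium binding, was level at 15.5 and 17.5 and was not called. Syt5 had 11 and 68 counts and Syt9, a fast sensor of some neurons and endocrine cells, 42 and 52, which gave Syt9 2.92 and 1.93 nuclear TPM. In replicate 2 the first 3 places were close, with Syt11 at 23.9%, Syt1 at 23.9% and Syt4 at 23.6% of the summed TPM, so their order there is not separated by these values. Without the GC trend Syt1 and Syt4 stood at 0.31 and 0.35 and were not called. The exons of Syt4 share 14.5% of their bases with Gm26658 on the opposite strand, and whether the counting used strand is not given in the sources used here.

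Rab3 GTPases bring vesicles to the release site, and their first and last members by TPM exchanged places. Rab3c (chr13:110054187-110280996) had 4815 and 2093 counts, the most of the 42 genes in each library, over a single 8500-base transcript. Its level was 99.7 nuclear TPM in replicate 1 and 32.7 in replicate 2 (log2 ratio -1.64). Rab3a, the synaptic form, stood at 12.3 and 76.8 (84 and 700 counts, 6.14-fold higher, exact 95% interval 4.92 to 7.83). Rab3d, found on exocrine granules, stood at 13.9 and 53.3 (294 and 1408 counts), and Rab3b, found in endocrine cells and epithelia, at 12.7 and 41.8 (143 and 422 counts). Rab3c was first of the 4 in replicate 1 with 71.9% of the summed TPM and last in replicate 2 with 16.0%, while Rab3a went from last with 8.87% to first with 37.5%. By counts Rab3c led both libraries, with 90.2% and 45.3% of the family. The GC content was 41.8% for Rab3c and 56.0%, 54.0% and 50.4% for Rab3a, Rab3d and Rab3b. None of the 4 was called with the GC trend removed, at 0.19 for Rab3c, -0.06 for Rab3a, 0.13 for Rab3d and 0.92 for Rab3b.

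Rab27 GTPases recruit dense-core and lysosome-related granules. Rab27a stood at 39.2 and 27.0 nuclear TPM (637 and 573 counts) and was not called. Rab27b had 144 and 53 counts and was lower (log2 ratio -1.86), and Rab27a took 88.0% and 94.7% of the pair's TPM. Among effectors of these GTPases and related proteins with C2 domains, Sytl4, or granuphilin, which binds Rab27a on dense-core granules, stood at 18.2 and 12.2 nuclear TPM, and Rims2, an active zone scaffold, at 16.6 and 14.1. Neither was called. Doc2b, a high-affinity calcium sensor that acts in chromaffin cells, stood at 9.26 and 22.7 (225 and 730 counts, 2.40-fold higher). Rph3a, or rabphilin, which binds Rab3a, stood at 2.46 and 4.12 and was not called until the GC trend was removed, where it was lower at -1.88. Rims1, the active zone scaffold of synapses, had 5 counts in replicate 1 and 0 in replicate 2, and a count of 0 allows up to 3.

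After fusion the ATPase Nsf and its SNAP adaptors take the SNARE complex apart. Nsf stood at 58.0 and 74.4 nuclear TPM (1196 and 2020 counts, log2 ratio 0.32) and was not called. Napa, which encodes the common adaptor α-SNAP, stood at 33.7 and 121 (264 and 2007 counts, 5.62-fold higher). Napb, the brain form β-SNAP, stood at 13.9 and 5.99 (333 and 189 counts, log2 ratio -1.25). Nsf led replicate 1 with 54.9% of their TPM and Napa led replicate 2 with 60.1%. By counts Nsf led both, with 66.7% and 47.9%, the latter beside 47.6% for Napa. With the GC trend removed Napa stood at 0.04 and Napb at 0.17.

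Of the vesicle membrane genes, Syp, which encodes synaptophysin of small clear vesicles, led both libraries at 14.6 and 45.3 nuclear TPM (204 and 837 counts, log2 ratio 1.60). Its exons share 16.8% of their bases with Gm14703 on the opposite strand, the most of any of the 42 genes. Syn1, or synapsin, which tethers synaptic vesicles to actin, stood at 12.3 and 7.01 (216 and 164 counts, log2 ratio -0.83) and was not called. At 57.7% GC it lay furthest below the trend of the 41 genes, at -4.33. Sv2a, the SV2 form of most neurons and endocrine cells, had 35 and 218 counts and 1.43 and 6.83 nuclear TPM, and Sv2c, the form of basal ganglia neurons, had 12 and 11 counts. Dnm1, the neuronal dynamin that cuts retrieved membrane free, had 30 and 320 counts and went from 2.23 to 16.0 nuclear TPM (7.80-fold, interval 5.43 to 11.9), and stood at -0.94 without the GC trend. Defining markers of neurons stayed low, with a sum of 9.49 and 14.5 nuclear TPM over 9 genes. As measured 3 of the 9 were called higher (Rbfox3, Tubb3 and Nefh) and 2 lower (Slc17a6 and Gad1). Over all tested genes the shares were 36.5% and 27.7%. Tubb3 had 5 and 46 counts, and Gad1 stood at 4.23 and 3.85 nuclear TPM. Gad2 was listed at 0 in both libraries and Chat at 0.01 and 0 TPM. The part of neurons in the levels above was not tested.

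The genes called lower with the GC trend removed were counted in replicate 1 at widely different depths. Unc13a and Rph3a rested on 39 and 56 counts in replicate 1, Syt5 on 11, whereas Vamp2, Cplx2, Syt7 and Syn1 rested on 1345, 959, 238 and 216. Among the 12 chromaffin markers the same setting called 3 higher (Th at 1.73, Dbh at 1.92 and Pnmt, listed at 0 in replicate 1) and 3 lower (among them Phox2a at -1.62 and Hand2 at -3.03), and among the 9 neuron markers it called 0 higher and 3 lower (Rbfox3, Gad1 and Nefh at -2.85, -1.03 and -2.47). The same setting called 17.1% of all tested genes higher and 9.9% lower. The markers named here were chosen after their values were seen. Their part in the values of the exocytosis genes was not tested.

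**Figure D3:**
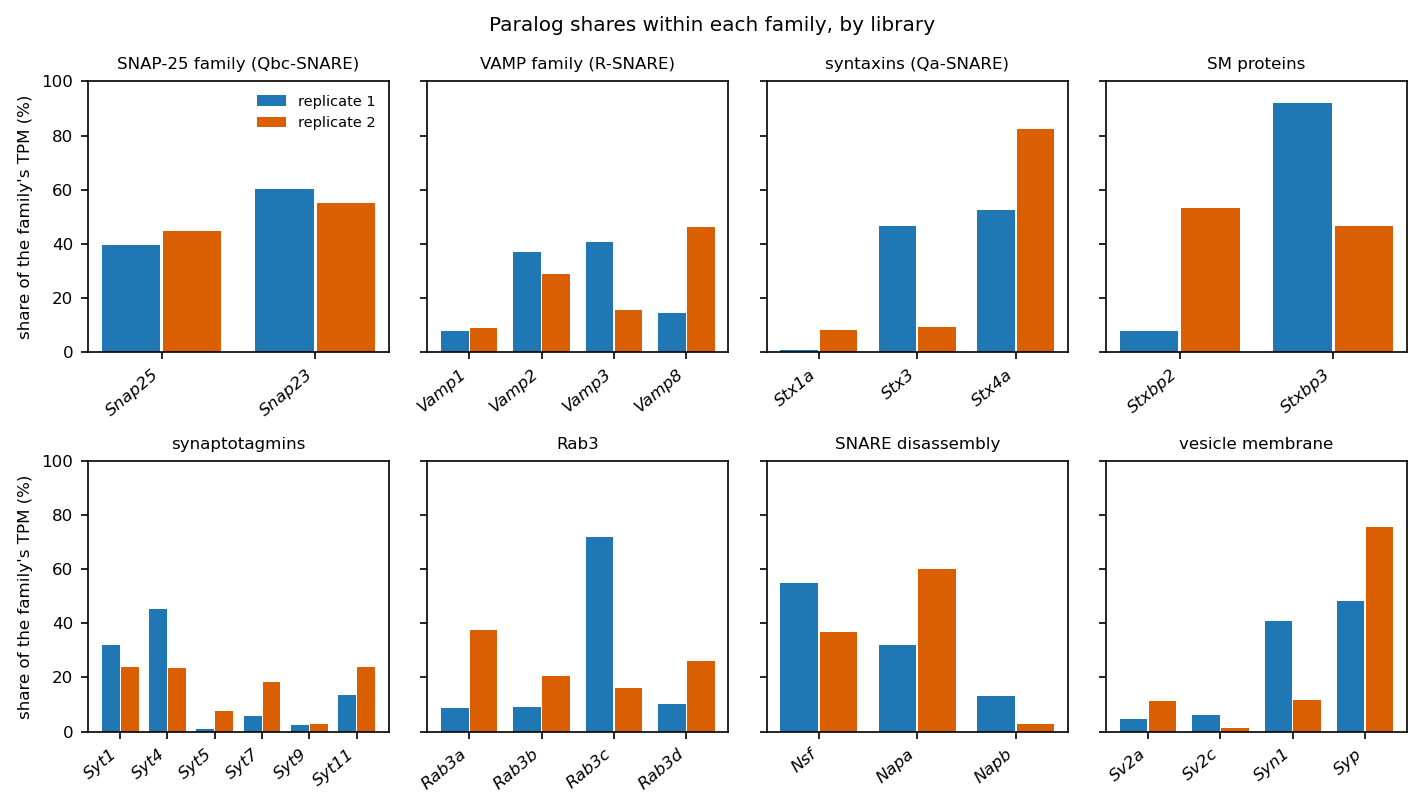
Share of each member in the summed deposited TPM of its family, in percent, for 8 of the 13 families with several members; blue bars are replicate 1 and orange bars replicate 2. Snap23 leads Snap25 in both libraries, whereas the tallest bar by TPM passes from Vamp3 to Vamp8, from Stxbp3 to Stxbp2, from Rab3c to Rab3a and from Nsf to Napa.

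Over the 13 families with several members, the gene with the highest listed TPM was the same in both libraries in 7 and another in 6, and the whole order was the same in 6. The leader was the same for the SNAP-25 family, syntaxins, complexins, Munc13 and CAPS proteins, Rab27 and the vesicle membrane genes. It differed for the VAMP family, SM proteins, synaptotagmins, Rab3, effectors and disassembly factors, although the first 3 synaptotagmins were not separated in replicate 2. By counts, without division by length, the leader was the same in 8 families and another in 5. It was then the same for SM proteins, CAPS proteins, Rab3 and disassembly factors, and differed for syntaxins and the vesicle membrane genes, so these families' leaders depend on the scale. Shares within a family do not depend on the scaling of the libraries, since all members are divided by the same sum. The GC trend was not removed from them.

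Transcript shares also differed between the libraries. The tables hold 217 transcripts for the 42 genes, 6 of which have a single one. Of the 35 genes with several transcripts and counts in both libraries, 21 had the same leading transcript in both and 14 did not. The leader was not a protein-coding model for 8 genes in replicate 1 and for 2 in replicate 2.

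By assigned TPM the main forms of Snap23 exchanged places. Snap23-201 took 94.8% in replicate 1 and 6.21% in replicate 2, and Snap23-202 took 4.32% and 89.0%. These transcripts share 2658 bases and differ only in 65 untranslated bases at the start of Snap23-202. How far reads over bases that differ between transcripts set these and the following shares was not tested. The shares of Syt11 moved likewise from Syt11-202 (76.7% and 0%) to Syt11-201 (0% and 74.3%), which holds a coding stretch of 824 bases of its own. Stxbp2-201, at 0% and 56.2%, replaced the retained-intron model Stxbp2-203, at 54.7% and 1.28%, as the leader. In replicate 1 Stxbp2-203, of 629 bases, led on 21 estimated counts. Most of the gene's 120 counts there, 97.6, were assigned to the protein-coding Stxbp2-207, of 2908 bases, at 41.2% of TPM. Rab3b-201 went from 17.2% to 80.2% while Rab3b-202, with 2136 more bases of 3′ untranslated sequence, went from 46.8% to 19.8%. Sytl4-203 took 87.9% and 21.2% and Sytl4-201, which has 3 further coding stretches, 8.53% and 64.4%. Syt7 was assigned wholly to Syt7-201 in replicate 1, and to Syt7-201, Syt7-202 and Syt7-203 at 47.3%, 35.8% and 16.9% in replicate 2. Other genes kept 1 form: Vamp2-201 took 93.6% and 82.6%, Vamp3-201 99.2% and 97.7%, Nsf-202 97.9% and 98.0% and Syp-201 97.7% and 99.9%.

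For Napb and Syn1 a short coding stretch separates the forms, printed here from GENCODE M21 on GRCm38, minus strand, 5′ to 3′, wholly in lower case because no part is singled out. The first lies at chr2:148707159-148707205 and the second at chrX:20861572-20861609.
Napb-201 only: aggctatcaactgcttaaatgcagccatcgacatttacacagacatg
Syn1-201 only: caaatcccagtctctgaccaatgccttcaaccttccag
Napb-202, which lacks its 47 bases and is annotated as a target of nonsense-mediated decay, took 98.7% and 85.5% of the gene's TPM, and the protein-coding Napb-201 took 0% and 12.1%. By assigned TPM it was thus the decay model that led Napb in both libraries. All 4311 bases of Napb-202 are shared with Napb-201, which has 101 bases of its own. How far reads over those 101 bases set the shares was not tested. Syn1-201, which holds its 38 bases, took 100% and 61.9%, and Syn1-202, which lacks them, 0% and 38.1%. The counts behind the minor forms in replicate 2 were 23.6 for Napb-201 and 63.1 for Syn1-202.

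**Figure D4:**
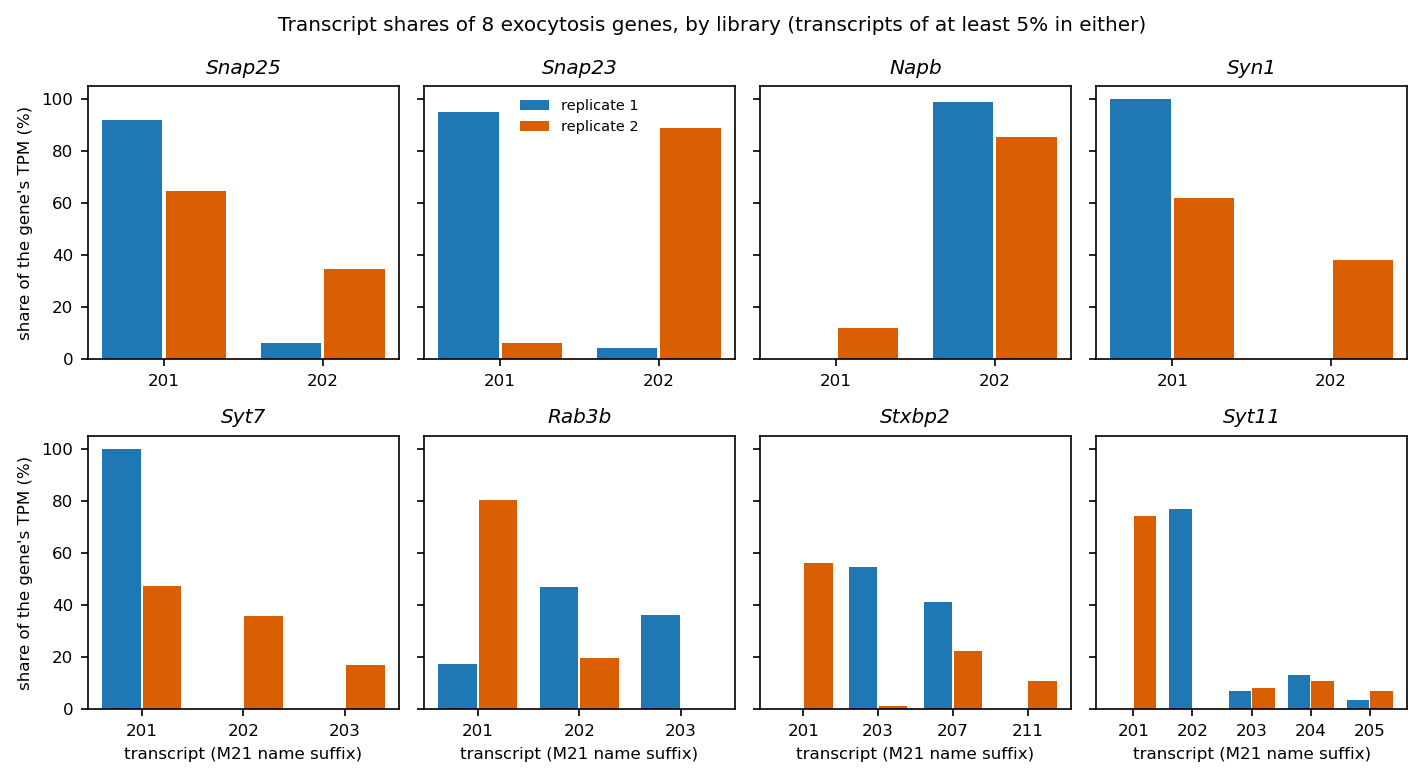
Share of each transcript in its gene's deposited TPM, in percent, for 8 exocytosis genes; transcripts with at least 5% in either library are drawn, blue for replicate 1 and orange for replicate 2. The leading bar is the same transcript in both libraries for Snap25, Napb, Syn1 and Syt7, and a different one for Snap23, Rab3b, Stxbp2 and Syt11.

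Beyond the 42 genes, 135 other names of the pathway were listed, of which 133 were found and 117 had enough counts. Of these, 46 were higher in replicate 2 and 31 lower, or 39.3% and 26.5%, near the 36.5% and 27.7% of all tested genes. With the GC trend removed 12 were higher and 4 lower, or 10.3% and 3.42%, beside 17.1% and 9.9% of all tested genes. Among 21 other SNAREs, 7 (33.3%) were higher and 6 (28.6%) lower, beside 36.5% and 27.7% of all tested genes. With the GC trend removed 2 (9.52%) of them were higher and 0 lower, beside 17.1% and 9.9%. Sec22b, of traffic between endoplasmic reticulum and Golgi, stood at 213 and 201 nuclear TPM and was not called on counts (3220 and 2661, log2 ratio -0.71), Bet1, of the same step, and Stx7, of endosomes, were lower (log2 ratios -1.94 and -1.36), and Snap47 was higher (1.94). Bet1, Stx7 and Snap47 lost their calls with the GC trend removed (0.23, -0.14 and 0.99). Of the 15 tested SM proteins and SNARE regulators, 4 (26.7%) were higher and 5 (33.3%) lower, and 0 were called with the GC trend removed. Scfd1, the SM protein of the early secretory path, and Stxbp6 were lower (-1.44 and -1.86), Snapin and Napg were not called (-0.60 and -0.999), and Baiap3, a Munc13-like protein of dense-core vesicle traffic, was higher (7 and 301 counts). Of 9 tested calcium sensors, 4 (44.4%) were higher and 2 (22.2%) lower, and 0 were called with the GC trend removed. As measured, Syt12 and Dysf, which encodes the membrane repair protein dysferlin, were higher (3.02 and 2.74). Syt3 had 0 and 71 counts, and Syt14 was lower (-1.70).

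The Rab cycle and active zone list had 10 (45.5%) higher and 5 (22.7%) lower of 22, beside 36.5% and 27.7% of all tested genes. With the GC trend removed 2 were higher and 2 lower, each 9.09%, beside 17.1% and 9.9% of all tested genes. Gdi2, which extracts Rabs from membranes, had the highest level of the list at 879 and 269 nuclear TPM and was lower (log2 ratio -1.74), and Rims4 and Rab3il1, an exchange factor for Rab3a, were higher (2.93 and 4.21). Of Gdi2, Rims4 and Rab3il1, only Rab3il1 kept its call without the GC trend (2.13). Of 15 tested vesicle membrane genes, 9 (60%) were higher and 4 (26.7%) lower. With the GC trend removed 1 was higher and 1 lower, each 6.67%. Cyb561, the cytochrome that passes electrons into chromaffin granules, rose from 57.8 to 205 nuclear TPM (log2 ratio 1.57) and turned to -1.93 without the GC trend. Slc18a2, which encodes the vesicular monoamine transporter VMAT2, was lower (39.7 and 12.4 nuclear TPM, log2 ratio -1.71) and lost its call without the GC trend. Sypl was lower (-1.63), and Syngr2 was higher (4.14). Atp6v0a1, a subunit of the proton pump, was higher on counts (1.02) although its nuclear TPM went from 129 to 102. Sypl, Syngr2 and Atp6v0a1 lost their calls without the GC trend (0.49, 0.72 and 0.57).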

How the data were processed

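Per library the authors deposited gene and transcript tables. Their expected counts are, per the file headers, estimates for a gene or transcript. TPM values stand beside them per the file headers. FPKM values in the deposited tables served as an alternative for detection. Posterior mean TPM and its bounds, named so per the file headers, were treated as a score. Transcript shares within a gene are given in percent by the deposited transcript tables. The tables use mm10 and GENCODE M4, per the deposited notes. For the aligner, the counting program and the strand setting, nothing is given in the sources used here.

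Counts were rounded. Nuclear TPM leaves out mitochondrial genes and the 15 nuclear genes with a transcript that matches one (BLAST 2.17.0, identity of 90% and coverage of 50% or more). Ratios divide replicate 2 by replicate 1 and were taken as log2 after TMM scaling (edgeR 4.0.16, R 4.3.3), with 0.5 as prior count. The p-values are two-sided and exact, and intervals and the floor of 3 counts cover counting error only. Each gene's GC content is a mean weighted by length over its transcripts in GENCODE M21 on GRCm38, a later release than the tables'. Its trend was removed with a lowess curve over 0.3 of the genes (statsmodels 0.14.6). Structures of transcripts are stated only where the deposited and M21 lengths are equal. No exocytosis gene has a near-identical copy (at least 95% identity over 50% of the transcript), and 10 share exonic bases with another gene.

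The 42 genes, the pathway list, the 14 marker lists, the tests and the alternatives were chosen with earlier results of these data known. All 42 genes are given. Pathway genes are named by rule: in each list up to 3 of highest mean nuclear TPM and the 1 with the largest log2 ratio in each direction among called genes with a mean TPM of at least 1. S100a10 and the chromaffin and neuron markers named with values were chosen after their values were seen. Vamp7 and Noc2 matched no symbol. Protein sequences were not used here, and a few genes that these rules name are not reported here. Alternatives were scaling (DESeq2 1.42.0 size factors, total counts), filters, fold minimum, trends with GC and length, prior count and libraries left out.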

Additional observations from a re-analysis of the deposited data

How the results depend on the processing

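With 2 libraries labelled technical replicates of 1 sample, no value here covers the spread between animals. No paired analysis was possible because there is only 1 group. Detected exocytosis genes numbered 13 at a TPM of at least 5, and 31 to 39 with one library left out. On rounded counts in place of TPM the leading shares were 66.0% for Snap23 (57.7% by TPM), 44.1% for Stx4a (67.6%), 47.6% for Cadps2 (60.6%) and 86.5% for Rab27a (91.3%), and, within the spread of the libraries, 67.8% for Rab3c (44.0%) and 31.2% for Napa (46.0%). Exocytosis genes higher in replicate 2 numbered 9 at a fold of at least 4, 1 with the GC trend removed, 3 with GC and length trends removed and 2 with GC of the leading transcript, against 16. All tested genes higher came to 26%, 17.1%, 15.1% and 16.2% under those settings, against 36.5%. Those lower numbered 0 under total-count scaling, 17 with no fold minimum and 0 at a fold of at least 4, against 9, beside 3.98%, 41.8% and 5.71% of all tested genes, against 27.7%. Other pathway genes higher numbered 25, 12, 12 and 11 under those 4 settings, against 46, and those lower 1 under total-count scaling, 18 under its nuclear version, 49 with no fold minimum, 2 at a fold of at least 4, 4 without the GC trend, 18 without the length trend, 5 without both and 1 with GC of the leading transcript, against 31. These counts are of 117 tested pathway genes. For the lower calls, all tested genes came in the same order to 3.98%, 20.7%, 41.8%, 5.71%, 9.9%, 24.5%, 10.4% and 9%, against 27.7%. The members' median log2 ratio of 0.21 was 1.34 under total-count scaling, 0.49 under its nuclear version, 0.70 without the length trend and 0.056 with GC of the leading transcript. The median of all tested genes under those settings was 1.24, 0.39, 0.17 and 0.19, against 0.10. Signs changed for 11 genes under total-count scaling, 10 of them called in neither setting, and for 21 without the GC trend, 5 of them called in neither. Among genes called in either setting they reversed for Syt1 under total-count scaling (0.013) and for 16 genes without the GC trend, followed here by the value without GC and length trends: Snap25 0.12 and 0.011, Stxbp3 0.091 and 0.057, Syt1 0.31 and 0.54, Syt4 0.35 and 0.51, Syt5 -1.56 and -1.72, Syt7 -2.69 and -2.42, Cplx1 -0.77 and -0.82, Cplx2 -1.39 and -1.15, Unc13a -1.56 and -1.29, Rab3a -0.056 and -0.37, Rab3c 0.19 and 0.46, Rab27b 0.23 and 0.46, Rph3a -1.88 and -1.70, Doc2b -0.99 and -0.79, Napb 0.17 and 0.37, and Dnm1 -0.94 and -0.94. With both trends removed Napa reversed too, at -0.069. The fewer calls at a fold of at least 4 follow from that minimum; the other causes were not tested. Under DESeq2 size factors 40 of the 41 genes kept their direction and side of the threshold.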

Other observations

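Genes of vesicle tethering and membrane retrieval, which work before and after the fusion step, showed the following values. Of the 11 exocyst genes, 2 (18.2%) were higher in replicate 2 and 3 (27.3%) lower, beside 36.5% and 27.7% of all tested genes, and their summed level was 816 and 419 nuclear TPM. Rala, the GTPase that engages the exocyst, stood at 181 and 50.8 nuclear TPM and was lower (log2 ratio -1.86), as was the subunit Exoc5 (152 and 27.6, log2 ratio -2.21), while Exoc1 was not called (-0.59). Exoc7 was higher (50 and 882 counts, log2 ratio 3.70) and kept its call with the GC trend removed, at 1.198. Rala and Exoc5 lost theirs (-0.91 and 0.30). With that trend removed 2 (18.2%) of the exocyst genes were higher and 1 (9.09%) lower, beside 17.1% and 9.9% of all tested genes. The median GC content of the exocyst genes was 45.0%, beside 49.8% for all tested genes. Of 24 genes of retrieval and actin, 10 (41.7%) were higher and 6 (25%) lower. With the GC trend removed 5 (20.8%) were higher and 0 lower, beside 17.1% and 9.9% of all tested genes. Cltc, the clathrin heavy chain, and Picalm, which loads clathrin coats, were lower (log2 ratios -1.27 and -2.07) and lost their calls with the GC trend removed (0.35 and -0.27). Anxa2, annexin A2, and S100a10, its binding partner, which act together in chromaffin granule release, were higher both as measured (2.66 and 1.63) and with the GC trend removed (2.07 and 1.73). Sh3gl1, an endophilin, had 6 and 543 counts and stood at 3.67 without the GC trend.

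The other marker lists gave these sums of nuclear TPM in replicate 1 and replicate 2. Schwann and sustentacular cell markers summed to 24.2 and 34.3, endothelial markers to 616 and 689, lymphocyte markers to 4.63 and 5.27, and adipocyte markers to 2660 and 5307. Stroma and smooth muscle markers summed to 728 and 523, kidney markers to 0.972 and 0.698, pancreas markers to 10.5 and 142, and skeletal muscle markers to 63.3 and 523. Of the pancreas sum Cela1 alone held 7.32 and 140, and no other pancreas marker passed 1.09 in either library.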
